A study of Mus musculus with 17 samples.

Results

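Genes that encode the proteasome and its helpers were followed in kidney macrophages of NZB/W mice, a hybrid strain that develops lupus nephritis spontaneously. The members were chosen by symbol: every gene of the platform annotation named Psma to Psmg with a number, 43 of the 15780 named genes on the arrays. No measured value entered that rule, but the family was picked out with earlier results of these arrays known, so its counts are given as a description beside those of all genes, and no test is made of the family as a whole. RefSeq lists 48 mouse genes with such symbols, and Psma3, Psma4, Psma5, Psmb3 and Psmb5 were not analysed here. The symbols Psmc3ip and Psme3ip1, which carry a suffix and name other proteins, were left out.

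Remission arrays (n = 4) were made 3 to 4 weeks after complete remission, in mice given 1 dose of cyclophosphamide (a cytotoxic drug), 6 doses of CTLA4Ig, which blocks T cell costimulation, and anti-CD154, an antibody against the CD40 ligand. Nephritic arrays (n = 7) came from mice with nephritis, 2 to 6 weeks into proteinuria and short of terminal renal failure. Prenephritic arrays (n = 6) came from mice 8 to 16 weeks old. All 17 samples were F4/80hi cells sorted by flow cytometry from kidney, a gate on the macrophage surface protein that Adgre1 encodes. The age of the remission and nephritic mice is not in the labels, which means that age and disease stage cannot be told apart here, and neither can treatment and remission. The labels do not say that the samples came from separate animals, in which case p-values cover no more than the spread among these 17 arrays, which may be technical. The 10 macrophage markers examined, Adgre1, Csf1r and Cd68 among them, stood above the lower quartile of all genes in every group.

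The proteasome is the barrel-shaped protease that degrades proteins tagged with ubiquitin. Its 20S core stacks rings of alpha subunits, which form the gate, around rings of beta subunits, which hold the proteolytic sites, and the 19S cap unfolds substrates and removes their ubiquitin. In immune cells interferon gamma replaces the catalytic beta subunits with the immunoproteasome subunits Psmb8, Psmb9 and Psmb10, and induces the activator pair Psme1 and Psme2. The peptides produced feed antigen presentation on class I molecules, a pathway that macrophages use constantly.

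Most proteasome genes were highest in nephritic macrophages. No member differed past the threshold between remission and prenephritic macrophages, a comparison in which 0 of all 15780 genes rose and 1 fell. The median over the 43 members, computed within each array on the deposited log2 scale, was 11.10 to 11.15 in the 4 remission arrays, 11.27 to 11.48 in the 7 nephritic arrays and 10.94 to 11.18 in the 6 prenephritic arrays. Every nephritic array thus lay above every array of the other 2 groups, while the remission range lay inside the prenephritic one. The shift was small for each gene: the largest member differences, of Psmb2 and Psmb9, were 0.46 and −0.46 on the log2 scale, a 1.38-fold change. The members also varied little within a group. The median member's within-group SD ranked at the 16.8th percentile of all genes, and single members from the 2.05th (Psma7) to the 81.3rd (Psma8). This ranking takes genes of every level, while 30 of the 43 members had a mean level of at least 10. The spread was not compared with that of genes at a similar level.

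Between nephritic and prenephritic arrays, 18 of 43 members (41.9%) rose and 0 fell at an adjusted p below 0.05 in limma, a linear model test adjusted by the Benjamini-Hochberg method over all 15780 genes. Of all genes tested, 6.74% rose and 5.32% fell. The median difference of the members was 0.21, against −0.02 for all genes, and 41 of 43 members had a positive difference, with Psmb11 and Psme4 negative. Among genes with a mean level of at least 10, 15 of 30 members rose, against 12.4% of all such genes. The nephritic and prenephritic ranges did not overlap for 8 members that were higher in nephritic arrays, and the share of all genes with such a gap was 3.07%.

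Between remission and nephritic arrays, 18 members (41.9%) fell and 0 rose, while 10% of all genes fell and 3.27% rose. The median difference was −0.22 for the members and −0.03 for all genes. Psme4 was the 1 member with a positive difference. Among genes with a mean level of at least 10, 14 of 30 members fell, against 14.9% of all such genes. All 4 remission arrays lay below all 7 nephritic arrays for 14 members, against 6.95% of all genes. The 2 comparisons share the nephritic arrays, so they are not separate evidence, and their values are given side by side. At an unadjusted p below 0.05, 1 member was lower in nephritic than in prenephritic arrays and 0 were higher in remission than in nephritic arrays, against 12.8% and 10.8% of all genes at that threshold. In bulk RNA, fewer cells of a type cannot be told apart from less RNA per cell. The values are relative within each normalized array, so a change in total RNA per cell was not measured.

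The number of members that passed as lower in remission was smaller without remission replicate 1, 2 or 3, and so was the share of all genes. It was 7 without remission replicate 1, where 5.87% of all genes fell, 7 without remission replicate 2, where 5.32% fell, and 11 without remission replicate 3, where 7.36% fell. Without remission replicate 4 it was 19, and 1940 of all genes fell, against 18 and 1584 with all arrays. The median member difference was −0.22, −0.20, −0.24 and −0.22 in these fits, in the order given, against −0.22 with all arrays. In nephritic against prenephritic arrays, 12 of the 18 increases passed the threshold whichever single array was left out, and in remission against nephritic arrays 4 of the 18 decreases did so, those of Psma6, Psmc5, Psmd14 and Psmd2. Psmb11 passed as lower in nephritic arrays when nephritic replicate 3 was left out (−0.27 ± 0.08, adjusted p = 0.041). The other settings named beside a gene are a repeated quantile normalization of the deposited values, subtraction of array medians, a fit of the 2 groups alone, the replicate number as a block, a tubule marker score as covariate, and the joint omission of nephritic replicate 6 and prenephritic replicate 5, under which 13 members rose in nephritic against prenephritic arrays (4.81% of all genes) and 14 fell in remission (10.1% of all genes).

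**Figure D1:**
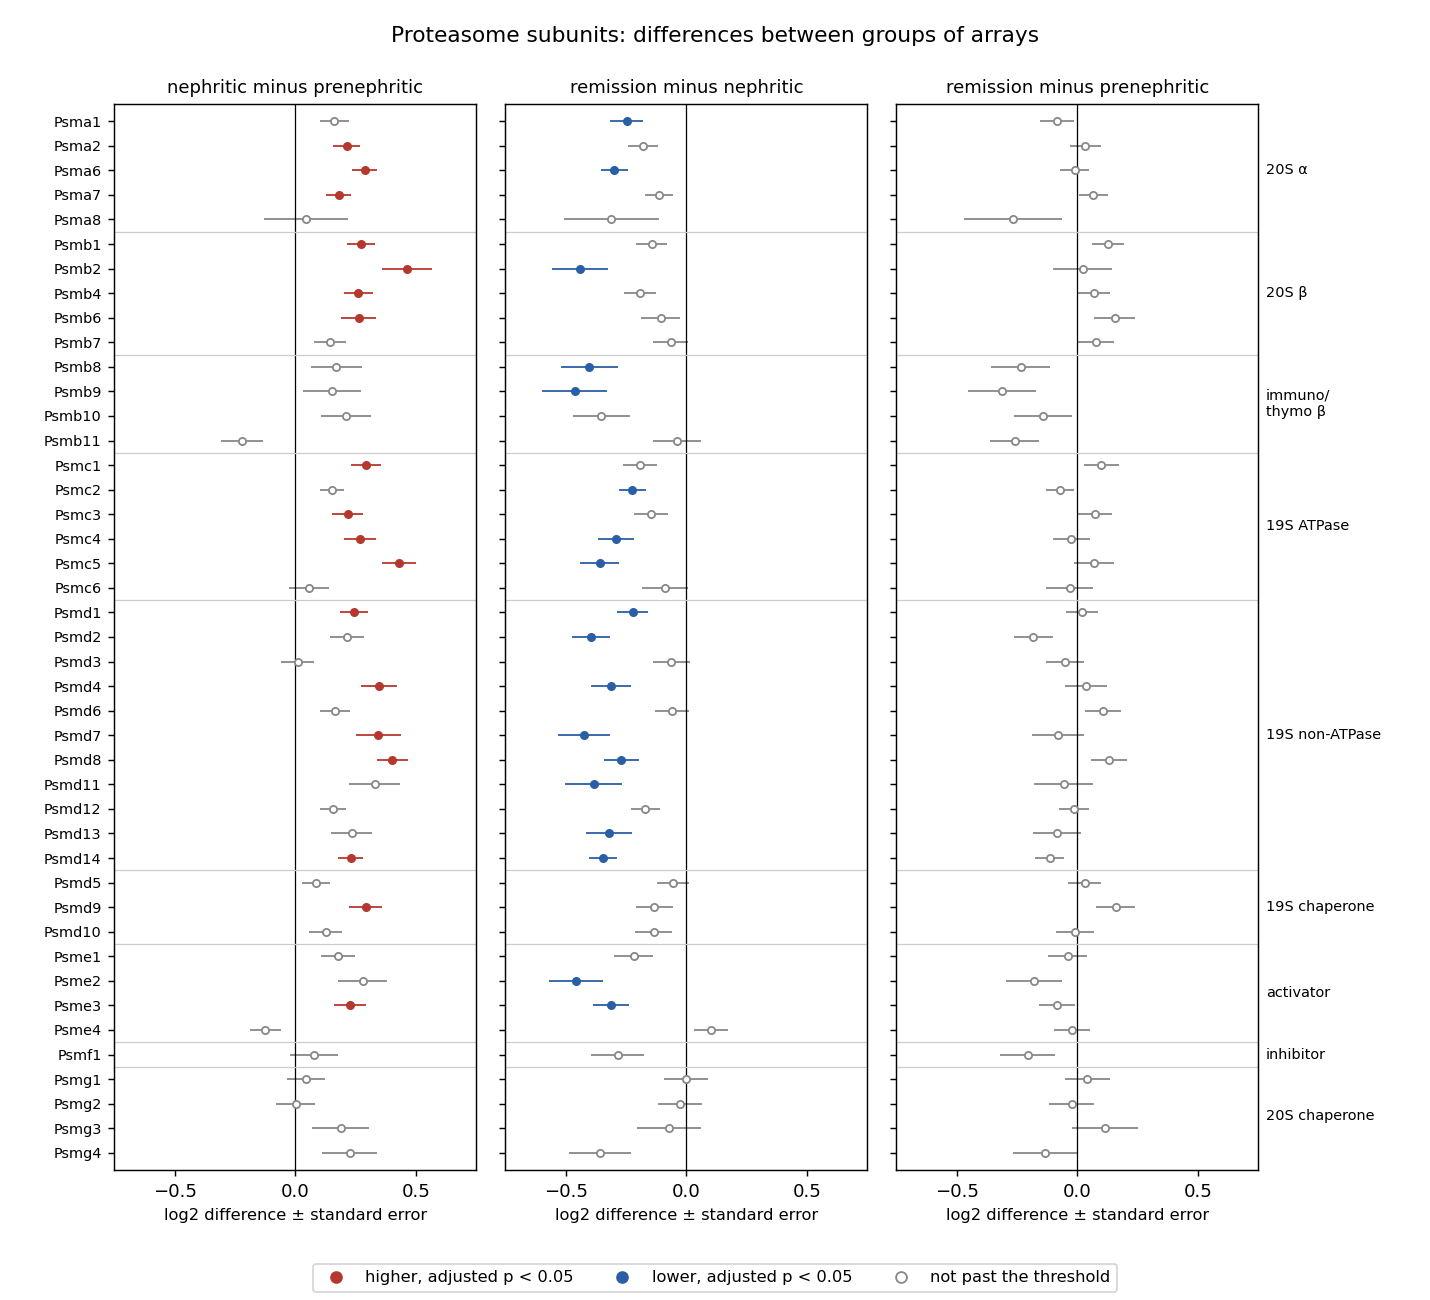
Log2 difference of each of the 43 proteasome genes (points, with standard errors as bars) in 3 comparisons, ordered by role, with filled points for an adjusted p below 0.05. The filled points lie right of 0 for nephritic minus prenephritic and left of 0 for remission minus nephritic, and no point is filled for remission minus prenephritic.

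**Figure D2:**
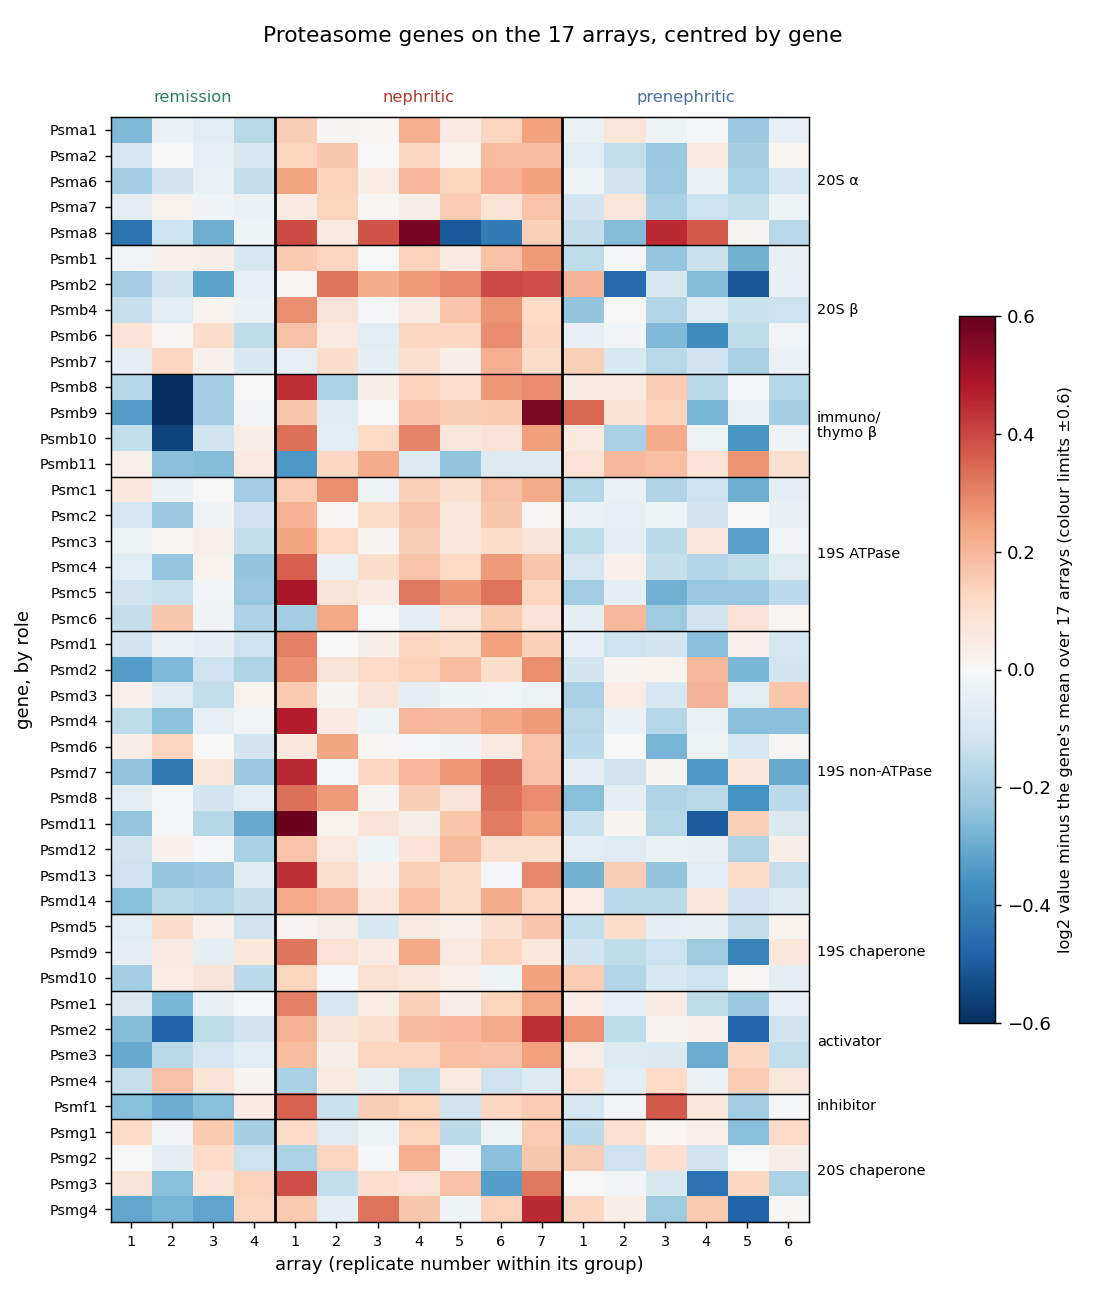
Log2 value of each member (rows) in each of the 17 arrays (columns), relative to the member's mean over all arrays, with colours limited at 0.6 in either direction. The nephritic columns are warm for most members, and Psmb8, Psmb9 and Psmb10 are coldest in remission replicate 2.

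Of the 5 alpha ring genes measured, 3 rose in nephritic macrophages and 2 fell in remission, against 6.74% and 10% of all genes. Psma6 read 12.21, 12.31, 12.38 and 12.28 in the remission arrays, 12.47 to 12.66 (median 12.62) in the nephritic arrays and 12.20 to 12.39 (median 12.31) in the prenephritic arrays. Psma6 thus had every nephritic array above every other array. Psma6 rose by 0.29 ± 0.05 in nephritic against prenephritic arrays (adjusted p = 0.0014) and fell by 0.30 ± 0.06 in remission against nephritic arrays (adjusted p = 0.0029). Psma6 encodes an alpha subunit of the gated outer ring, as do Psma1, Psma2 and Psma7. Psma2 rose by 0.21 ± 0.06 in nephritic against prenephritic arrays (adjusted p = 0.021), and its remission minus nephritic difference was −0.18 ± 0.06 (adjusted p = 0.071). Psma7 rose by 0.18 ± 0.05 in nephritic against prenephritic arrays (adjusted p = 0.029), and its remission minus nephritic difference was −0.11 ± 0.06 (adjusted p = 0.2). Psma1 fell by 0.25 ± 0.07 in remission against nephritic arrays (adjusted p = 0.025), and its nephritic minus prenephritic difference was 0.16 ± 0.06 (adjusted p = 0.1). Psma1 was the member of the ring whose decrease in remission passed while its nephritic difference did not, and whether those 2 changes differ was not tested. Psma8, the alpha subunit of the germ cell proteasome, differed by 0.04 ± 0.17 nephritic minus prenephritic (adjusted p = 0.92). When 1 of the arrays in brackets was left out, the adjusted p reached 0.0544 for the increase of Psma2 (prenephritic replicates 3 or 5), 0.073 for the increase of Psma7 (nephritic replicates 5 or 7 or prenephritic replicates 1, 3, 4 or 5) and 0.11 for the decrease of Psma1 (remission replicate 1). With the settings in brackets it reached 0.095 for the increase of Psma2 (repeated quantile normalization and the joint omission) and 0.16 for the increase of Psma7 (repeated quantile normalization, a fit of the 2 groups alone, the replicate block and the joint omission).

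Among the 5 constitutive beta ring genes, 4 rose in nephritic macrophages and 1 fell in remission, against 6.74% and 10% of all genes. Psmb2 read 11.18, 11.27, 11.07 and 11.34 in the remission arrays, 11.39 to 11.78 (median 11.67) in the nephritic arrays and 10.88 to 11.59 (median 11.21) in the prenephritic arrays. Psmb2, a non-catalytic beta subunit, had the largest nephritic difference in the family, although prenephritic replicate 1 reached into the nephritic range. Psmb2 rose by 0.46 ± 0.10 in nephritic against prenephritic arrays (adjusted p = 0.0073) and fell by 0.44 ± 0.12 in remission against nephritic arrays (adjusted p = 0.02). Psmb1 rose by 0.27 ± 0.06 in nephritic against prenephritic arrays (adjusted p = 0.0046), and its remission minus nephritic difference was −0.14 ± 0.06 (adjusted p = 0.15). Psmb4 rose by 0.26 ± 0.06 in nephritic against prenephritic arrays (adjusted p = 0.007), and its remission minus nephritic difference was −0.19 ± 0.07 (adjusted p = 0.062). Psmb1 and Psmb4 are also non-catalytic ring subunits, and their remission arrays overlapped the nephritic range. In the remission arrays Psmb6 stood at 12.30, 12.23, 12.32 and 12.06, in the nephritic arrays at 12.15 to 12.50 (median 12.34) and in the prenephritic arrays at 11.84 to 12.20 (median 12.12). Psmb6 carries the caspase-like site of the standard proteasome. Psmb6 rose by 0.26 ± 0.07 in nephritic against prenephritic arrays (adjusted p = 0.027), and its remission minus nephritic difference was −0.11 ± 0.08 (adjusted p = 0.42). Psmb7 read 11.96, 12.14, 12.04 and 11.92 in the remission arrays, 11.96 to 12.23 (median 12.11) in the nephritic arrays and 11.82 to 12.16 (median 11.91) in the prenephritic arrays. Psmb7, with the trypsin-like site, kept all 3 groups overlapping. Psmb7 did not pass the threshold, with differences of 0.14 ± 0.06 nephritic minus prenephritic (adjusted p = 0.17) and −0.07 ± 0.07 remission minus nephritic (adjusted p = 0.61). Without 1 of the arrays given in brackets, the adjusted p reached 0.064 for the increase of Psmb6 (nephritic replicates 1 or 6 or prenephritic replicates 3 or 4) and 0.07 for the decrease of Psmb2 (remission replicates 1, 2 or 3). Other settings brought it to 0.093 for the increase of Psmb6 (repeated quantile normalization and the joint omission) and 0.069 for the decrease of Psmb2 (the replicate block and the tubule covariate).

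Of the 3 immunoproteasome genes, 0 rose in nephritic macrophages and 2 fell in remission, against 6.74% and 10% of all genes. Whether these counts differ from those of the constitutive ring was not tested. The pairwise tests that follow compare, between groups, the within-array difference from the constitutive counterpart, for Psmb9 and Psmb10 alone. Psmb8 read 11.93, 11.49, 11.89 and 12.09 in the remission arrays, 11.91 to 12.54 (median 12.24) in the nephritic arrays and 11.93 to 12.25 (median 12.12) in the prenephritic arrays. Psmb8, which replaces the chymotrypsin-like subunit, was lowest in remission replicate 2, and its remission and nephritic ranges overlapped. Psmb8 fell by 0.40 ± 0.12 in remission against nephritic arrays (adjusted p = 0.034), and its nephritic minus prenephritic difference was 0.17 ± 0.11 (adjusted p = 0.35). In the remission arrays Psmb9 stood at 11.34, 11.04, 11.47 and 11.67, in the nephritic arrays at 11.61 to 12.24 (median 11.84) and in the prenephritic arrays at 11.40 to 12.02 (median 11.71). Psmb9, which replaces Psmb6, was highest in nephritic replicate 7 and again lowest in remission replicate 2. Psmb9 fell by 0.46 ± 0.14 in remission against nephritic arrays (adjusted p = 0.033), and its nephritic minus prenephritic difference was 0.15 ± 0.12 (adjusted p = 0.49). Psmb10 read 11.97, 11.57, 12 and 12.16 in the remission arrays, 12.06 to 12.45 (median 12.24) in the nephritic arrays and 11.77 to 12.34 (median 12.10) in the prenephritic arrays. Psmb10, which replaces Psmb7, had the same low array. Psmb10 did not pass the threshold, with differences of 0.21 ± 0.10 nephritic minus prenephritic (adjusted p = 0.22) and −0.35 ± 0.12 remission minus nephritic (adjusted p = 0.057). Leaving out any of the bracketed arrays alone, the adjusted p reached 0.16 for the decrease of Psmb8 (remission replicates 1, 2 or 3 or nephritic replicates 1, 4, 6 or 7) and 0.16 for the decrease of Psmb9 (remission replicates 1, 2 or 3 or nephritic replicates 1, 4 or 7). Under the bracketed settings it came to 0.18 for the decrease of Psmb8 (subtracted array medians, a fit of the 2 groups alone, the replicate block, the tubule covariate and the joint omission) and 0.19 for the decrease of Psmb9 (the replicate block, the tubule covariate and the joint omission). Psmb11, the beta subunit of thymic cortical epithelium, read between 3.35 and 3.96 over all arrays, below the lower quartile of all genes (5.03).

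Whether an immunoproteasome subunit moved apart from the constitutive subunit it replaces was tested within arrays, as the log2 value of the inducible gene minus that of its constitutive counterpart. Only the change of this quantity between groups is read, since 2 probe sets need not respond alike. Psmb9 minus Psmb6 was −0.95, −1.19, −0.85 and −0.40 in the remission arrays, −0.67 to −0.10 (median −0.52) in the nephritic arrays and −0.72 to −0.13 (median −0.42) in the prenephritic arrays. Remission replicates 1, 2 and 3 lay below all nephritic and prenephritic arrays, and remission replicate 4 lay among them. The tubule marker scores of these 4 arrays, 1.03, 1.32, 0.65 and 0.00, ran in the reverse order. The pair was not tested with that score as a covariate. The group means differed by −0.36 (exact two-sided permutation p = 0.0485, adjusted p = 0.15 over the 6 tests) for remission minus nephritic. For remission minus prenephritic the difference was −0.47 (exact two-sided permutation p = 0.0476, adjusted p = 0.15 over the 6 tests). For nephritic minus prenephritic it was −0.11 (exact two-sided permutation p = 0.33, adjusted p = 0.39 over the 6 tests). None of these passed after adjustment. The smallest p the exact test allows was 0.0061 for remission against nephritic arrays, 0.0095 for remission against prenephritic arrays and 0.0012 for nephritic against prenephritic arrays.

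Psmb10 minus Psmb7 was 0.02, −0.57, −0.04 and 0.24 in the remission arrays, −0.06 to 0.49 (median 0.25) in the nephritic arrays and −0.05 to 0.50 (median 0.07) in the prenephritic arrays. Remission replicate 2 stood lowest and the other remission arrays overlapped both groups. The group means differed for remission minus nephritic by −0.29 (exact two-sided permutation p = 0.13, adjusted p = 0.27 over the 6 tests). The nephritic minus prenephritic difference was 0.06 (exact two-sided permutation p = 0.55, adjusted p = 0.55 over the 6 tests), and the remission minus prenephritic difference was −0.22 (exact two-sided permutation p = 0.32, adjusted p = 0.39 over the 6 tests). The pair of Psmb8 with its counterpart Psmb5 was not analysed here.

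**Figure D3:**
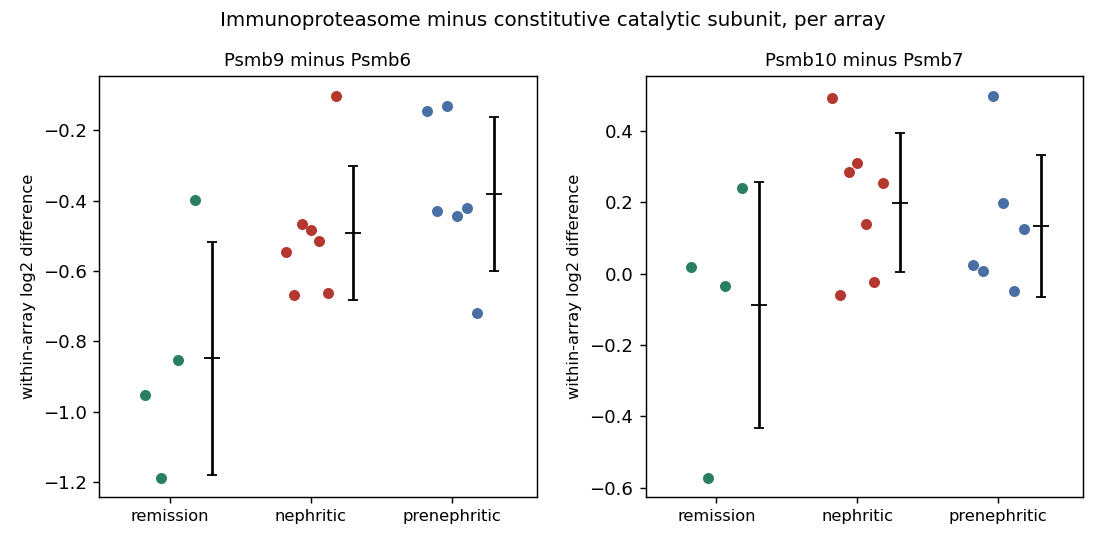
Within-array log2 difference of Psmb9 minus Psmb6 and of Psmb10 minus Psmb7 in each array (points), with each group's mean ± SD as a black bar. For Psmb9 minus Psmb6, 3 of the 4 remission arrays lie below every nephritic and prenephritic array.

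The activators that open the gate without the 19S cap comprise an inducible pair and 2 nuclear forms. Of these 4, 1 (Psme3) rose in nephritic macrophages and 2 (Psme2 and Psme3) fell in remission. The shares of all genes were 6.74% and 10%. Psme1 read 12.82, 12.63, 12.86 and 12.89 in the remission arrays, 12.81 to 13.21 (median 13.04) in the nephritic arrays and 12.69 to 12.95 (median 12.86) in the prenephritic arrays. In the remission arrays Psme2 stood at 11.89, 11.67, 12 and 12.03, in the nephritic arrays at 12.22 to 12.59 (median 12.34) and in the prenephritic arrays at 11.67 to 12.42 (median 12.09). Psme1 and Psme2 form the interferon-inducible ring, and for Psme2 every remission array lay below every nephritic array. Psme2 fell by 0.46 ± 0.11 in remission against nephritic arrays (adjusted p = 0.014), and its nephritic minus prenephritic difference was 0.28 ± 0.10 (adjusted p = 0.084). Psme1 did not pass the threshold, with differences of 0.18 ± 0.07 nephritic minus prenephritic (adjusted p = 0.12) and −0.22 ± 0.08 remission minus nephritic (adjusted p = 0.08). Psme3 read 9.91, 10.05, 10.10 and 10.14 in the remission arrays, 10.25 to 10.45 (median 10.38) in the nephritic arrays and 9.91 to 10.33 (median 10.12) in the prenephritic arrays. Psme3, a nuclear activator, had no remission array in the nephritic range. Psme3 rose by 0.23 ± 0.07 in nephritic against prenephritic arrays (adjusted p = 0.032) and fell by 0.31 ± 0.07 in remission against nephritic arrays (adjusted p = 0.011). Psme4, a large nuclear activator tied to the degradation of acetylated histones, had the only positive remission minus nephritic difference. Psme4 did not pass the threshold, with differences of −0.12 ± 0.06 nephritic minus prenephritic (adjusted p = 0.23) and 0.10 ± 0.07 remission minus nephritic (adjusted p = 0.37). Leaving out any of the bracketed arrays alone, the adjusted p reached 0.068 for the increase of Psme3 (nephritic replicates 1, 5, 6 or 7 or prenephritic replicates 2, 3, 4 or 6), 0.07 for the decrease of Psme2 (remission replicate 2) and 0.056 for the decrease of Psme3 (remission replicate 1). Under the bracketed settings it came to 0.098 for the increase of Psme3 (repeated quantile normalization, subtracted array medians and the replicate block), 0.065 for the decrease of Psme2 (the tubule covariate) and 0.073 for the decrease of Psme3 (the replicate block and the tubule covariate).

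Psmb8, Psmb9, Psmb10, Psme1 and Psme2 varied together from array to array. After each group's mean was removed, their 10 pairwise Pearson correlations over the 17 arrays ran from 0.47 to 0.85, with a median of 0.72. The median over 666 pairs of the other 37 members, without Psmb11, was 0.15, and the median over pairs between the 2 sets was 0.14. These arrays share normalization and sort, and the correlations are given as a description.

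In the ATPase ring of the 19S base, which unfolds substrates and threads them into the core, 4 of 6 genes rose in nephritic macrophages and 3 fell in remission. The shares of all genes were 6.74% and 10%. Psmc5 read 9.74, 9.73, 9.85 and 9.64 in the remission arrays, 9.91 to 10.35 (median 10.13) in the nephritic arrays and 9.58 to 9.81 (median 9.65) in the prenephritic arrays. Psmc5 had every nephritic array above all others. Psmc5 rose by 0.43 ± 0.07 in nephritic against prenephritic arrays (adjusted p = 0.00083) and fell by 0.36 ± 0.08 in remission against nephritic arrays (adjusted p = 0.0076). In the remission arrays Psmc1 stood at 11.87, 11.77, 11.81 and 11.60, in the nephritic arrays at 11.77 to 12.09 (median 11.96) and in the prenephritic arrays at 11.51 to 11.77 (median 11.66). The nephritic and prenephritic ranges of Psmc1 met without overlap, and its remission arrays reached into both. Psmc1 rose by 0.29 ± 0.06 in nephritic against prenephritic arrays (adjusted p = 0.0052), and its remission minus nephritic difference was −0.19 ± 0.07 (adjusted p = 0.078). Psmc4 rose by 0.27 ± 0.07 in nephritic against prenephritic arrays (adjusted p = 0.014) and fell by 0.29 ± 0.07 in remission against nephritic arrays (adjusted p = 0.016). Psmc3 rose by 0.22 ± 0.06 in nephritic against prenephritic arrays (adjusted p = 0.033), and its remission minus nephritic difference was −0.14 ± 0.07 (adjusted p = 0.18). Psmc2 fell by 0.22 ± 0.06 in remission against nephritic arrays (adjusted p = 0.014), and its nephritic minus prenephritic difference was 0.15 ± 0.05 (adjusted p = 0.055). Psmc2, Psmc3 and Psmc4 are ATPase subunits of the same ring. Psmc6 did not pass the threshold, with differences of 0.06 ± 0.08 nephritic minus prenephritic (adjusted p = 0.74) and −0.09 ± 0.09 remission minus nephritic (adjusted p = 0.59). When 1 of the arrays in brackets was left out, the adjusted p reached 0.076 for the increase of Psmc3 (nephritic replicates 1, 4 or 6 or prenephritic replicates 1, 3 or 5), 0.07 for the decrease of Psmc2 (remission replicate 2) and 0.075 for the decrease of Psmc4 (remission replicate 2). With the settings in brackets it reached 0.062 for the increase of Psmc4 (the joint omission), 0.17 for the increase of Psmc3 (repeated quantile normalization, a fit of the 2 groups alone, the replicate block and the joint omission) and 0.078 for the decrease of Psmc2 (subtracted array medians and the tubule covariate).

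The non-ATPase subunits of the cap held the smallest p of both comparisons: 5 of 11 rose in nephritic macrophages and 8 of 11 fell in remission. The shares of all genes were 6.74% and 10%. Psmd8 read 11.76, 11.82, 11.72 and 11.76 in the remission arrays, 11.85 to 12.16 (median 12.09) in the nephritic arrays and 11.47 to 11.78 (median 11.66) in the prenephritic arrays. Psmd8, a lid subunit, had the smallest p of the family in nephritic against prenephritic arrays, and its remission arrays lay at the upper end of the prenephritic range or just above it, below every nephritic array. Psmd8 rose by 0.40 ± 0.06 in nephritic against prenephritic arrays (adjusted p = 0.00058) and fell by 0.27 ± 0.07 in remission against nephritic arrays (adjusted p = 0.02). In the remission arrays Psmd14 stood at 11.69, 11.80, 11.78 and 11.81, in the nephritic arrays at 12.03 to 12.18 (median 12.13) and in the prenephritic arrays at 11.79 to 12.02 (median 11.85). Psmd14 is the deubiquitinase of the lid that removes ubiquitin chains from substrates, and its nephritic arrays were above all others. Psmd14 rose by 0.23 ± 0.05 in nephritic against prenephritic arrays (adjusted p = 0.008) and fell by 0.34 ± 0.06 in remission against nephritic arrays (adjusted p = 0.0013). Psmd2 read 10.46, 10.53, 10.68 and 10.62 in the remission arrays, 10.88 to 11.08 (median 10.94) in the nephritic arrays and 10.53 to 11 (median 10.75) in the prenephritic arrays. Psmd2, a large base scaffold that docks ubiquitin carriers, had a remission range below the nephritic range, with prenephritic arrays across both. Psmd2 fell by 0.40 ± 0.08 in remission against nephritic arrays (adjusted p = 0.0035), and its nephritic minus prenephritic difference was 0.21 ± 0.07 (adjusted p = 0.058). In the remission arrays Psmd4 stood at 10.50, 10.40, 10.60 and 10.63, in the nephritic arrays at 10.62 to 11.12 (median 10.85) and in the prenephritic arrays at 10.40 to 10.62 (median 10.48). Psmd4 is a ubiquitin receptor of the cap. Psmd4 rose by 0.35 ± 0.07 in nephritic against prenephritic arrays (adjusted p = 0.0053) and fell by 0.31 ± 0.08 in remission against nephritic arrays (adjusted p = 0.021).

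Psmd1, the other base scaffold, and Psmd7, the lid partner of Psmd14, passed in both comparisons. Psmd1 rose by 0.24 ± 0.06 in nephritic against prenephritic arrays (adjusted p = 0.012) and fell by 0.22 ± 0.07 in remission against nephritic arrays (adjusted p = 0.034). Psmd7 rose by 0.34 ± 0.09 in nephritic against prenephritic arrays (adjusted p = 0.025) and fell by 0.42 ± 0.11 in remission against nephritic arrays (adjusted p = 0.014). The lid subunits Psmd11 and Psmd13 passed on the side of remission alone, and whether their 2 differences are unequal in size was not tested. Psmd11 fell by 0.38 ± 0.12 in remission against nephritic arrays (adjusted p = 0.041), and its nephritic minus prenephritic difference was 0.33 ± 0.11 (adjusted p = 0.0517). Psmd13 fell by 0.32 ± 0.10 in remission against nephritic arrays (adjusted p = 0.037), and its nephritic minus prenephritic difference was 0.23 ± 0.09 (adjusted p = 0.087). The remaining lid subunits passed in neither comparison. Psmd12 differed by 0.16 ± 0.05 nephritic minus prenephritic and −0.17 ± 0.06 remission minus nephritic, Psmd6 by 0.16 ± 0.06 and −0.06 ± 0.07, and Psmd3 by 0.01 ± 0.07 and −0.06 ± 0.08, with adjusted p of 0.067 or more. Leaving out any of the bracketed arrays alone, the adjusted p reached 0.056 for the increase of Psmd7 (nephritic replicates 1 or 6 or prenephritic replicates 4 or 6), 0.062 for the decrease of Psmd8 (remission replicates 1 or 3), 0.097 for the decrease of Psmd4 (remission replicates 1 or 2), 0.075 for the decrease of Psmd7 (remission replicates 1 or 2), 0.1 for the decrease of Psmd1 (remission replicates 1, 2, 3 or 4 or nephritic replicates 1, 4, 6 or 7), 0.12 for the decrease of Psmd11 (remission replicates 1, 2, 3 or 4, nephritic replicates 1, 5, 6 or 7 or prenephritic replicate 1) and 0.12 for the decrease of Psmd13 (remission replicates 1, 2 or 3 or nephritic replicates 1, 4 or 7). Under the bracketed settings it came to 0.056 for the increase of Psmd7 (subtracted array medians), 0.083 for the decrease of Psmd7 (the tubule covariate), 0.1 for the decrease of Psmd1 (repeated quantile normalization, subtracted array medians, a fit of the 2 groups alone, the replicate block, the tubule covariate and the joint omission), 0.083 for the decrease of Psmd11 (repeated quantile normalization, the replicate block, the tubule covariate and the joint omission) and 0.08 for the decrease of Psmd13 (repeated quantile normalization, the replicate block and the tubule covariate).

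**Figure D4:**
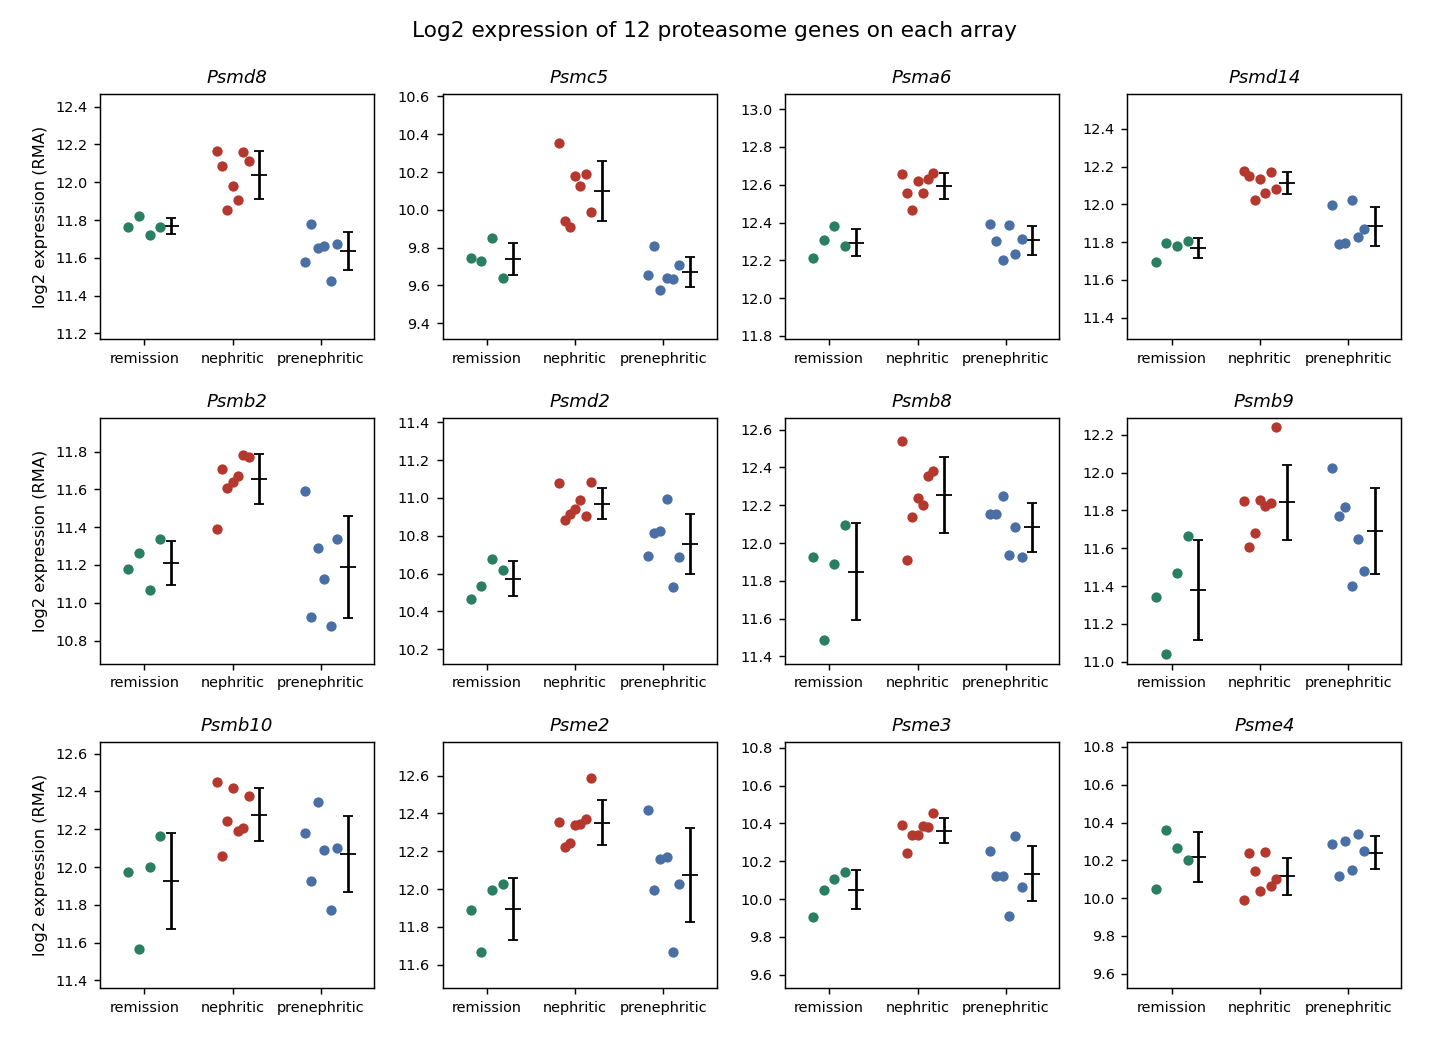
Log2 values of 12 members in each array (points) by group, with each group's mean ± SD as a black bar, on axes of equal span. Nephritic points lie above all prenephritic and remission points for Psma6, Psmc5, Psmd8 and Psmd14.

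Among the assembly factors, 1 of 7 rose in nephritic macrophages and 0 fell in remission, against 6.74% and 10% of all genes. Psmd9, a chaperone of the 19S base, was the one that rose. Psmd9 read 7.63, 7.74, 7.63 and 7.75 in the remission arrays, 7.74 to 8.01 (median 7.78) in the nephritic arrays and 7.29 to 7.75 (median 7.55) in the prenephritic arrays. Psmd9 rose by 0.29 ± 0.07 in nephritic against prenephritic arrays (adjusted p = 0.011), and its remission minus nephritic difference was −0.13 ± 0.08 (adjusted p = 0.28). The other base chaperones were Psmd5 (0.09 ± 0.06 nephritic minus prenephritic, adjusted p = 0.4) and Psmd10 (0.12 ± 0.07, adjusted p = 0.27). The genes Psmg1 to Psmg4 encode chaperones of the alpha ring, and 0 of 4 passed in any comparison. Over the 3 comparisons the largest difference was 0.04 in size for Psmg1 and Psmg2. Psmg4 differed by −0.36 ± 0.13 remission minus nephritic (adjusted p = 0.074) and Psmg3 by 0.19 ± 0.12 nephritic minus prenephritic (adjusted p = 0.35). The inhibitor gene Psmf1 differed by −0.28 ± 0.11 remission minus nephritic (adjusted p = 0.097).

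**Figure D5:**
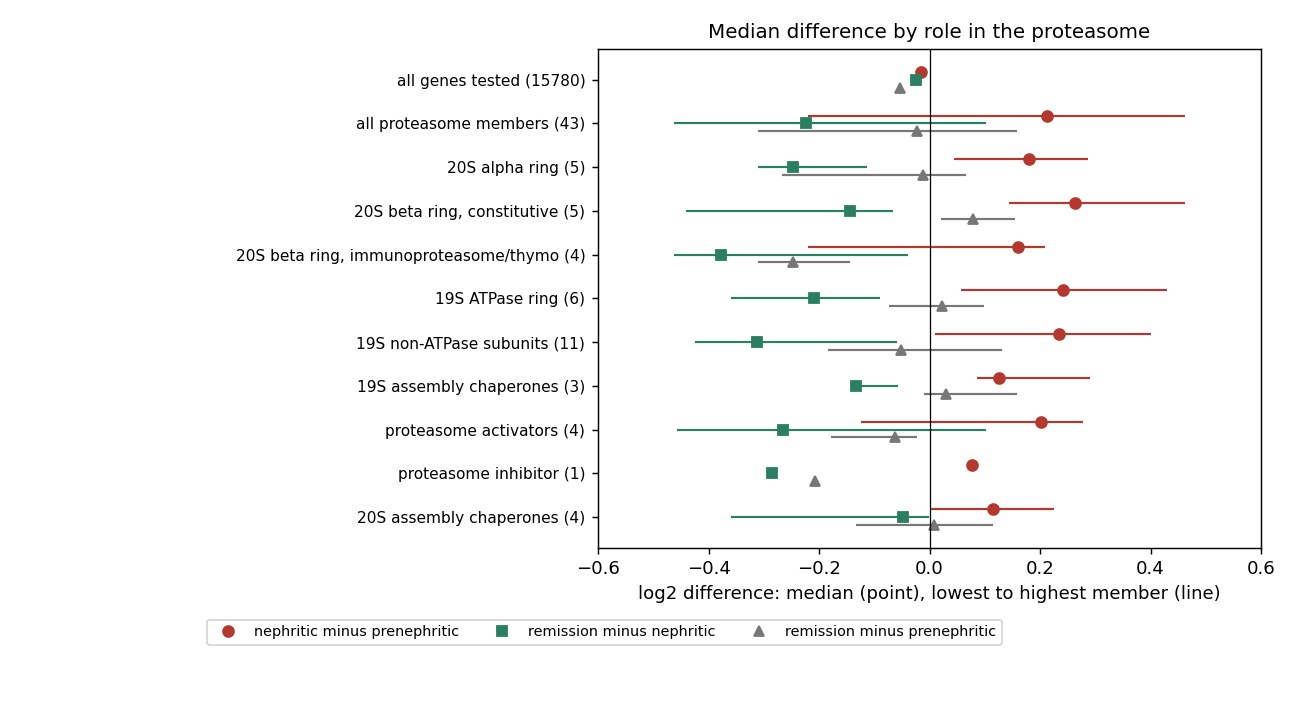
Median log2 difference of the measured members of each role group (points) with lines from the lowest to the highest member, beside the median of all genes tested, in 3 comparisons. The constitutive beta ring, the ATPase ring and the non-ATPase subunits have nephritic minus prenephritic medians of 0.26, 0.24 and 0.23, and all genes −0.02.

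No proteasome gene differed past the threshold between remission and prenephritic macrophages: 0 of 43 members passed in limma, where 0% of all genes rose and 0.00634% fell. The member median was −0.02, with a sign that turned when remission replicate 1 or 4 was left out (0.0022 and 0.0032), and the median of all genes was −0.05. Of the member differences, 18 were positive and 25 negative. At an unadjusted p below 0.05 there were 3 members (6.98%), against 18.7% of all genes. Psmb9 had the largest difference in size, −0.31 ± 0.14, with a 95% interval of −0.61 to −0.01. Psmb8 differed by −0.23 ± 0.12 (95% interval −0.49 to 0.02). The intervals were narrower for 3 subunits of the core and cap. That of Psma6 ran from −0.14 to 0.11, that of Psmd14 from −0.24 to 0.01 and that of Psmd8 from −0.02 to 0.29. A p above the threshold does not show that the levels were equal.

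Of 11 measured genes that work with the proteasome but lack a Psm symbol, 2 rose in nephritic macrophages and 3 fell in remission. The shares of all genes in these comparisons, 6.74% and 10%, apply to each list here. Pomp rose by 0.19 ± 0.06 in nephritic against prenephritic arrays (adjusted p = 0.043) and fell by 0.22 ± 0.06 in remission against nephritic arrays (adjusted p = 0.033). Pomp, the chaperone that matures the beta ring, is the partner closest to core assembly. Zfand2a rose by 0.67 ± 0.20 in nephritic against prenephritic arrays (adjusted p = 0.043) and fell by 0.96 ± 0.23 in remission against nephritic arrays (adjusted p = 0.012). Zfand2a is a stress-induced adaptor that binds the cap. Usp14 fell by 0.26 ± 0.08 in remission against nephritic arrays (adjusted p = 0.0497), and its nephritic minus prenephritic difference was 0.14 ± 0.07 (adjusted p = 0.26). Usp14 is a deubiquitinase that docks on the cap. Of 7 measured genes of ubiquitin supply and shuttling, 1 rose in nephritic macrophages and 2 fell in remission. Ubqln1 rose by 0.16 ± 0.05 in nephritic against prenephritic arrays (adjusted p = 0.045) and fell by 0.20 ± 0.05 in remission against nephritic arrays (adjusted p = 0.022). Rad23b fell by 0.34 ± 0.09 in remission against nephritic arrays (adjusted p = 0.024), and its nephritic minus prenephritic difference was 0.16 ± 0.08 (adjusted p = 0.26). Ubqln1 and Rad23b carry ubiquitinated proteins to the proteasome. With single arrays left out (those in brackets), the adjusted p reached 0.099 for the increase of Pomp (13 of the 17 arrays), 0.1 for the increase of Zfand2a (11 of the 17 arrays), 0.1 for the increase of Ubqln1 (15 of the 17 arrays), 0.18 for the decrease of Usp14 (13 of the 17 arrays), 0.12 for the decrease of Pomp (remission replicates 1, 2 or 3 or nephritic replicates 1 or 7), 0.069 for the decrease of Ubqln1 (remission replicates 1, 2 or 3) and 0.11 for the decrease of Rad23b (remission replicates 1, 2 or 3). Under other settings it reached 0.15 for the increase of Pomp (6 settings), 0.09 for the increase of Zfand2a (5 settings), 0.17 for the increase of Ubqln1 (5 settings), 0.32 for the decrease of Usp14 (4 settings), 0.12 for the decrease of Pomp (subtracted array medians, the replicate block and the tubule covariate), 0.12 for the decrease of Ubqln1 (repeated quantile normalization, subtracted array medians, the replicate block and the tubule covariate) and 0.13 for the decrease of Rad23b (subtracted array medians, a fit of the 2 groups alone and the tubule covariate).

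NRF1 and NRF2 are transcription factors that drive proteasome genes under proteasome and oxidative stress. Of 10 measured genes of their pathway, 2 rose in nephritic macrophages and 2 fell in remission. Of all genes, 6.74% rose and 10% fell. The nephritic minus prenephritic difference was positive for 8 and negative for 2 of the 10. The remission minus nephritic difference was positive for 5 and negative for 5. Over the 10 genes the differences ran from −0.40 to 1.01 for nephritic minus prenephritic. For remission minus nephritic they ran from −1.15 to 1.00. Hmox1 rose by 1.01 ± 0.19 in nephritic against prenephritic arrays (adjusted p = 0.0023) and fell by 1.15 ± 0.22 in remission against nephritic arrays (adjusted p = 0.0024). Hmox1 encodes heme oxygenase, an NRF2 target. Txnrd1 rose by 0.39 ± 0.12 in nephritic against prenephritic arrays (adjusted p = 0.041), and its remission minus nephritic difference was −0.30 ± 0.13 (adjusted p = 0.15). Txnrd1 encodes thioredoxin reductase. Nfe2l2 fell by 0.30 ± 0.09 in remission against nephritic arrays (adjusted p = 0.031), and its nephritic minus prenephritic difference was 0.23 ± 0.08 (adjusted p = 0.057). Nfe2l2 encodes NRF2, and Nfe2l1 encodes NRF1. Nfe2l1 did not pass the threshold, with differences of 0.07 ± 0.06 nephritic minus prenephritic (adjusted p = 0.53) and 0.09 ± 0.07 remission minus nephritic (adjusted p = 0.42). The NRF2 targets Nqo1, Gclm and Gclc passed in neither comparison. The remission, nephritic and prenephritic means were 9.52, 9.24 and 9.30 for Gclm and 8.55, 8.41 and 8.28 for Gclc. When 1 of the arrays in brackets was left out, the adjusted p reached 0.09 for the increase of Txnrd1 (12 of the 17 arrays) and 0.11 for the decrease of Nfe2l2 (remission replicates 1, 2 or 4 or nephritic replicates 1, 3 or 7). With the settings in brackets it reached 0.15 for the increase of Txnrd1 (4 settings) and 0.22 for the decrease of Nfe2l2 (subtracted array medians, a fit of the 2 groups alone and the tubule covariate).

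Of 11 measured genes of class I peptide loading, 0 rose in nephritic macrophages and 3 fell in remission. Of all genes, 6.74% rose and 10% fell. Tap1 fell by 0.77 ± 0.17 in remission against nephritic arrays (adjusted p = 0.007), and its nephritic minus prenephritic difference was 0.19 ± 0.15 (adjusted p = 0.48). Tap1 carries proteasome peptides into the endoplasmic reticulum, and its gene lies next to Psmb9. Erap1 fell by 0.39 ± 0.11 in remission against nephritic arrays (adjusted p = 0.026), and its nephritic minus prenephritic difference was 0.11 ± 0.10 (adjusted p = 0.54). Erap1 trims those peptides. H2-K1 fell by 0.32 ± 0.08 in remission against nephritic arrays (adjusted p = 0.018), and its nephritic minus prenephritic difference was 0.16 ± 0.07 (adjusted p = 0.2). H2-K1 is a class I heavy chain. B2m did not pass the threshold, with differences of −0.03 ± 0.04 nephritic minus prenephritic (adjusted p = 0.72) and 0.03 ± 0.04 remission minus nephritic (adjusted p = 0.73). B2m encodes its light chain. Of 15 measured interferon response genes, 3 rose in nephritic macrophages, namely Ifit1 (1.14 ± 0.21, adjusted p = 0.0017), Irf7 (1.06 ± 0.24, adjusted p = 0.0077) and Zbp1 (0.65 ± 0.15, adjusted p = 0.01). In remission 6 fell, among them Zbp1 (−1.08 ± 0.17, adjusted p = 0.00083), Irf7 (−1.41 ± 0.27, adjusted p = 0.0029), Oasl2 (−0.80 ± 0.19, adjusted p = 0.012) and Ifit1 (−0.89 ± 0.23, adjusted p = 0.019). Without 1 of the arrays given in brackets, the adjusted p reached 0.094 for the decrease of Erap1 (remission replicates 1, 2 or 3), 0.093 for the decrease of H2-K1 (remission replicates 1 or 2), 0.06 for the decrease of Oasl2 (remission replicate 2) and 0.095 for the decrease of Ifit1 (remission replicate 2). Other settings brought it to 0.23 for the decrease of Erap1 (repeated quantile normalization, subtracted array medians and the tubule covariate), 0.099 for the decrease of H2-K1 (the tubule covariate), 0.1 for the decrease of Oasl2 (the tubule covariate) and 0.0533 for the decrease of Ifit1 (a fit of the 2 groups alone).

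Other gene groups differed between the same arrays, and their part in these results was not tested beyond the settings given here. Over all genes, 6.74% rose and 5.32% fell in nephritic arrays, and 3.27% rose and 10% fell in remission. Of 18 measured cell cycle genes, 12 rose in nephritic macrophages and 17 fell in remission, with Tk1 (1.66 ± 0.15, adjusted p = 5.7e-06) and Ccnb2 (1.08 ± 0.17, adjusted p = 0.00064) leading the rise. With 1 array left out, increases were lost for Ccna2 (12 of the 17 arrays), Bub1 (9), Cdk1 (6) and Plk1 (6). With the replicate block, the increases of Ccna2, Bub1, Cdk1, Aurkb, Rrm2 and Top2a did not pass. The decrease of Mcm3 did not pass without remission replicate 1, 2 or 3, nor with subtracted array medians or the tubule covariate. The mean log2 level of the 12 measured B cell and plasma cell markers ran from 7.03 to 7.80 in remission arrays, 8.09 to 9.27 in nephritic arrays and 6.63 to 7.87 in prenephritic arrays. In that list 8 rose and 1, Tnfrsf17, fell in nephritic arrays, and 6 fell and 1 rose in remission. Pax5 stayed below the lower quartile in every group, and so did Ms4a1 and Pou2af1 in remission and prenephritic arrays and Ighg3 in prenephritic arrays. Of 10 T and NK cell markers, 3 rose and 1 fell in nephritic arrays and 6 fell in remission. The list means were 5.07 to 5.30 in remission arrays, 5.53 to 6.04 in nephritic arrays and 5.25 to 5.97 in prenephritic arrays. Cd8a and Ncr1 stood below the lower quartile in every group, and Cd3g in remission and prenephritic arrays. Cd3d, Gzma and Nkg7 stood below it in remission. Of 8 dendritic cell markers 1 rose and 2 fell in nephritic arrays and 1 rose and 2 fell in remission, of 8 endothelial markers 1 rose in nephritic arrays and 1 rose and 1 fell in remission, and of 9 fibroblast and mesangium markers 2 rose and 1 fell in nephritic arrays and 1 rose and 2 fell in remission. Of 8 neutrophil markers 0 passed, and Mpo, Elane, Ngp and Cxcr2 stood below the lower quartile in every group. So did the endothelial marker Cdh5 and Lum of the fibroblast and mesangium list. The dendritic cell markers Zbtb46 and Ccr7 stood below it in remission. Of 10 macrophage markers, 3 rose in nephritic arrays and 3 fell in remission, in both cases Itgam, Mertk and Fcgr1. Their nephritic minus prenephritic differences were 2.09 ± 0.17, 1.22 ± 0.21 and 0.63 ± 0.14. The other 7 passed in neither comparison. Over the 10 markers, 5 differences were positive and 5 negative in each comparison. The median was 0.017 for nephritic minus prenephritic and 0.0037 for remission minus nephritic. Leaving out any of the bracketed arrays alone, the adjusted p reached 0.15 for the decrease of Fcgr1 (remission replicates 1 or 2 or nephritic replicates 1, 3, 4 or 7). Under the bracketed settings it came to 0.23 for the decrease of Fcgr1 (subtracted array medians and the tubule covariate).

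RNA of kidney tubules was present in all groups. The tubule score, the mean centred value of 35 measured tubule markers, was 0.00 to 1.32 in remission arrays, −2.05 to 0.57 in nephritic arrays and −0.99 to 0.76 in prenephritic arrays, with the highest values in remission. Of the tubule genes, 6 rose in remission against nephritic arrays and 0 of 35 in nephritic against prenephritic arrays. The 6 were Gatm, Ttc36, Hpd, Calb1, Pvalb and Fxyd2. With the score as a covariate, 22 members rose and 1 (Psmb11) fell in nephritic against prenephritic arrays, and 12 members fell in remission against nephritic arrays. Over all genes in these fits 8.8% rose and 9.6% fell in nephritic against prenephritic arrays, and 5.16% fell in remission, against 6.74%, 5.32% and 10% without the covariate. The median member difference with the covariate was 0.21 for nephritic minus prenephritic and −0.25 for remission minus nephritic.

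The promoters of Psmd8 and Psmd14, which had the smallest p in the 2 main comparisons, and of the neighbouring immunoproteasome genes Psmb8 and Psmb9 are shown as examples of the 19S cap and of the interferon-inducible set. The sequences are from RefSeq on GRCm38.p6, each 5′ to 3′ on the strand of its gene and ending at the base before the annotated start. Capitals mark matches, on either strand, to any of 5 searched motifs: TGACNNNGC, the core that NRF factors bind, GAAANNGAA, the core of interferon-stimulated elements, TTCNNNGAA, bound by STAT dimers, CCAAT, and GGGCGG, the GC box.
Psmd8 (chr7:29180674-29180873, minus strand): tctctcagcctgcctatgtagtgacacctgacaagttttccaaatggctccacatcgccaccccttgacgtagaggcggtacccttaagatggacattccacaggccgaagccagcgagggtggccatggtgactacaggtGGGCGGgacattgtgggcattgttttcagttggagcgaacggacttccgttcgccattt
Psmd14 (chr2:61711494-61711693, plus strand): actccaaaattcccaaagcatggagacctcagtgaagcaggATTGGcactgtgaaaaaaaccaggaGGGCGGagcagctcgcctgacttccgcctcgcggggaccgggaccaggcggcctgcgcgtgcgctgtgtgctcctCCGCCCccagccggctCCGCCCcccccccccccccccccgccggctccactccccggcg
Psmb8 (chr17:34197995-34198194, plus strand): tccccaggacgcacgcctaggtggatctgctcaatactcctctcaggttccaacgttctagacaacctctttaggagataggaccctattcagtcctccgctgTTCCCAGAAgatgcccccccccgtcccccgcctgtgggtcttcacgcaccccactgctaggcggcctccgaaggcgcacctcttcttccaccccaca
Psmb9 to Tap1 (chr17:34187331-34187555, minus strand): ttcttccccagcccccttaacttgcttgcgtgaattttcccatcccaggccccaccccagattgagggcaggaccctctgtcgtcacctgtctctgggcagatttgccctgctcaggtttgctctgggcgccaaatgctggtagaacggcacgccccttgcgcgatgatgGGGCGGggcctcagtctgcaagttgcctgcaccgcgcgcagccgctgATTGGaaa
The last is the whole stretch of 225 bases between the divergent starts of Psmb9 and Tap1. It holds 1 GC box and 1 CCAAT in reverse next to the Psmb9 start. The Psmb8 window holds 1 TTCNNNGAA match, the Psmd8 window 1 GC box, and the Psmd14 window 3 GC boxes and 1 CCAAT in reverse, and no matches overlap in these windows.

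Over the 250 bases before each start, 35 members had 38 windows. The NRF core TGACNNNGC stood in 4 of 38 member windows (10.5%), 11.3% of the windows of genes on the array and 10.2% of all windows, and the member genes were Psmb6, Psmc6, Psmd9 and Psmd12. GAAANNGAA stood in 2 of 38 member windows (5.26%), 6.21% of the windows of genes on the array and 7.13% of all windows. TTCNNNGAA stood in 2 of 38 member windows (5.26%), 6.26% of the windows of genes on the array and 7.02% of all windows, and the members were Psmb8 and Psmg1. CCAAT stood in 12 of 38 member windows (31.6%), 34.8% of the windows of genes on the array and 33.8% of all windows. GGGCGG stood in 22 of 38 member windows (57.9%), 50% of the windows of genes on the array and 32.7% of all windows. A match is a run of letters, not a shown site, and a window without one says nothing of the factor.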

How the data were processed

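Total RNA of 17 sorted macrophage samples was hybridised to Affymetrix arrays. The authors deposited log2 values made by RMA (background correction, quantile normalization and probe summary), per the submitters' processing notes. RMA compresses differences of dim genes. The deposited arrays did not share 1 distribution: array medians ran from 7.49 to 7.68, and correlations between arrays from 0.94 to 0.99. The number of arrays limits the precision, since the values carry no read depth.

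Of 16539 probe sets, 64 controls and 695 without a symbol were left out, which left 15780 genes with 1 probe set each and no filter on level. One limma 3.58.1 model (R 4.3.3) took all 17 arrays and gave each group its own mean, leaving 14 residual degrees of freedom. Its moderated tests were two-sided, with Benjamini-Hochberg adjustment across 15780 genes and a threshold of 0.05. Differences are log2 ± standard error. Within-array pairs were tested by exact permutation over arrays (SciPy 1.17.1). The model was tested on simulated data. A further planned pair, Psmb8 minus Psmb5, could not be made because Psmb5 was not analysed here, so p-values of pairs were adjusted over 6 tests.

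The members and lists were chosen with earlier results of these data known. Named were the catalytic subunits and Psme1 and Psme2, up to 8 called members of each role group and the member with the smallest p in each comparison, and, of other lists, Pomp, Nfe2l1, Nfe2l2, Tap1, B2m and up to 4 called genes with the smallest p. Members outside this rule are given for completeness. As alternatives, dim genes were dropped, quantile normalization was applied again and array medians were subtracted. Other fits let the variance prior follow intensity, weighted arrays, took the 2 groups alone, blocked on replicate number, added a tubule score, left out 2 arrays together and left out each array in turn.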

Additional observations from a re-analysis of the deposited data

Results flagged for a closer look

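A single array stood far from the rest of its group in 6 of 135 groups tested, and about 1 in 20 groups would show such a gap by chance. Nephritic replicate 7 was high for Psmb9 at 12.24, with the next nephritic array at 11.86. It was also high for Psme2 at 12.59, with the next at 12.37. The within-array difference Psmb9 minus Psmb6 was −0.10 in that array, the highest of the nephritic group. Remission replicate 4 was high for the inhibitor Psmf1 at 8.02, where the other remission arrays read 7.67 to 7.71. It was high for the alpha ring chaperone Psmg4 as well, at 9.0 against 8.56 to 8.59. Remission replicate 2 was low for Psmg3 at 9.67, and the highest remission array read 10.06. The cause of these gaps was not tested.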

How the results depend on the processing

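Of the 18 increases in nephritic and the 18 decreases in remission macrophages, 0 changed sign under the alternatives run, nor did any of the 6 pair differences. Among members that did not pass, the sign changed under at least 1 alternative for 5 of 25 in nephritic against prenephritic, 4 of 25 in remission against nephritic and 14 of 43 in remission against prenephritic arrays. The member median of remission minus prenephritic (−0.02) became 0.0022 without remission replicate 1 and 0.0032 without remission replicate 4, and the median of all genes in remission minus nephritic (−0.03) became 0.02 with the tubule score. In nephritic against prenephritic arrays, 13 to 22 members rose under the 9 other settings and 13 to 20 with 1 array left out, against 18. Over all genes the counts of increases there were 759 to 1388 and 870 to 1102, against 1064. The number of members that fell there was 0 and became 1, Psmb11, with the tubule score as covariate, and was 0 to 1 with 1 array left out, 1 without nephritic replicate 3. In remission against nephritic arrays, 12 to 25 members fell under the 9 other settings, 12 with the tubule score as covariate and 25 with array weights. Over all genes 815 fell with the tubule score and 2385 with array weights, against 1584. With 1 array left out the member count ran from 7 to 20. It was 7 without remission replicate 1, 7 without remission replicate 2 and 11 without remission replicate 3. Over all genes the count ran from 839 without remission replicate 2 to 1940 without remission replicate 4. In remission against prenephritic arrays the member count stayed 0 throughout. The cause of these shifts was not tested.

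Counts over all genes moved by more than 1.5 times in the following cases. Genes lower in nephritic arrays were 1515 with the tubule score, 537 with array medians subtracted and 477 with the joint omission, against 840. Genes higher in remission than in nephritic arrays were 1239 with array weights and 1064 with the replicate block, against 516, and genes lower there were 2385 with array weights and 815 with the tubule score, against 1584. Between remission and prenephritic arrays, 69 genes were higher and 289 lower with array weights, and 234 higher and 244 lower with the replicate block, against 0 and 1. Without remission replicates 1, 2, 3 or 4, genes higher in remission than in nephritic arrays were 195, 182, 332 and 981, and without replicates 1 or 2, 926 and 839 were lower. Without prenephritic replicate 6, 28 genes were higher and 171 lower in remission than in prenephritic arrays, and without remission replicate 4, 1 and 16. The other fits gave 0 to 2 higher and 0 to 3 lower there.

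The groups share replicate numbers, and whether the numbers pair the arrays could not be decided from the values. Same-numbered arrays of different groups had correlations of their deviations from −0.26 to 0.80, with 8 of 14 above 0.1. Such correlations between arrays with different numbers ran from −0.73 to 0.79, so the ranges overlapped. With the replicate number as a block, 15 members rose in nephritic against prenephritic arrays, where 945 of all 15780 genes rose. In remission against nephritic arrays 13 members and 1823 of all genes fell. Psmb9 minus Psmb6 differed by −0.31 between same-numbered remission and nephritic arrays (exact sign-flip permutation p = 0.25, with 4 pairs and a smallest possible p of 0.12). Subtracting array medians leaves the within-array pairs as they are by construction. With 4 remission arrays, small differences from prenephritic arrays are hard to detect, and no gene list or pathway was tested as a set.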
